A study of Mus musculus with 20 samples.

Results

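Heat shock proteins and chaperones were taken by symbol: every named gene beginning with Hsp, Dnaj, Fkbp or Pdia, together with Calr, Canx, the chaperonin subunits Cct2 to Cct8, the cyclophilins Ppia to Ppih and the co-chaperones Bag1 to Bag6, without the proteoglycan gene Hspg2. The rule found 88 of the 9230 genes named on the array, from 91 probes. Membership rests on gene symbols, and where a gene had several probes the one with the highest mean log2 intensity stood for it. RNA came from a retina pool of adult C57/B6 mice and a cortex pool of Swiss-Webster mice at postnatal day 1, and both pools were hybridised to 1-colour CodeLink arrays (GE Healthcare, formerly Amersham). Both pools were read with 5 arrays apiece at a first site and again, with 5 more apiece, at site 2, giving 4 groups and 20 arrays, to assess variation within the platform and across sites. Arrays within a group repeat the measurement of one RNA, so a p-value measures the spread between arrays and not between animals. Tissue, strain and age differ together between the pools and cannot be told apart, and how many mice entered each pool is not given in the sources used here.

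Chaperones bind unfolded or partly folded proteins and keep them from aggregating. Hsp70 proteins do this in cycles of ATP hydrolysis that J-domain proteins (the Dnaj genes) start and nucleotide exchange factors (Hsp110, Bag and Hspbp1 proteins) end. Hsp90 completes the folding of kinases and receptors, the chaperonins enclose a protein in a chamber, and small heat shock proteins hold unfolded proteins without ATP. In the endoplasmic reticulum, calreticulin, calnexin and protein disulfide isomerases fold secreted and membrane proteins, a group that in photoreceptors includes the opsins. FK506-binding proteins and cyclophilins speed the turning of peptide bonds at proline. Heat shock factor switches on the inducible members through repeated GAA and TTC units in their promoters, and the unfolded protein response uses the ER stress element for several of the reticulum's members.

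The promoters below carry these elements. They are the RefSeq sequences of GRCm38.p6, given for the 250 bases before each gene's start, 5′ to 3′ on the gene's strand, and position -1 is the base next to the start. In the first 5, capitals mark 2 alternating heat shock units (GAANNTTC or TTCNNGAA, where N is any base). In Hsp90b1, capitals mark the ER stress element, which was searched as CCAAT and CCACG with 9 bases between them. Both strands were searched, and matches were allowed to overlap. Where a gene had several promoter windows, the one with the most pairs of heat shock units was taken. Hspa1b and Hspa1a are shown as the inducible Hsp70 pair, where Hspa1b had the widest difference towards retina, Hspb1 and Dnaja4 as further members higher in retina with a match, Hsph1 as a member lower in retina, and Hsp90b1 as a chaperone of the endoplasmic reticulum. Hspa1b lay at chr17:34959239-34959488 and Hspa1a at chr17:34972157-34972406, both on the minus strand, Hspb1 at chr5:135887669-135887918 and Dnaja4 at chr9:54699309-54699558, both on the plus strand, and Hsph1 at chr5:149636316-149636565 and Hsp90b1 at chr10:86705445-86705694, both on the minus strand.
Hspa1b: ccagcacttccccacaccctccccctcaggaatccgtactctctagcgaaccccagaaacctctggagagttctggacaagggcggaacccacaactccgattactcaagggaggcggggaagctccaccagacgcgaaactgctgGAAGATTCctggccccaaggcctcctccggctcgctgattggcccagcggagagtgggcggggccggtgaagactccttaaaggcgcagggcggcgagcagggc
Hspa1a: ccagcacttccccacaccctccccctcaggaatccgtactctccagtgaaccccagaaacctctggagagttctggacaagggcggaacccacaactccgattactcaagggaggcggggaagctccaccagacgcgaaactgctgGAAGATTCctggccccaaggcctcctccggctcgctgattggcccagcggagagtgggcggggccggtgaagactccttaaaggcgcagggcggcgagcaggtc
Hspb1: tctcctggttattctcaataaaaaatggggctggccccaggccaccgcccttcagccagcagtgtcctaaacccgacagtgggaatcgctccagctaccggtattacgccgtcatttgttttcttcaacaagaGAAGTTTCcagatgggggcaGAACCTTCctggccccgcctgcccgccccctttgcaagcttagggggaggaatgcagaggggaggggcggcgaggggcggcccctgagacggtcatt
Dnaja4: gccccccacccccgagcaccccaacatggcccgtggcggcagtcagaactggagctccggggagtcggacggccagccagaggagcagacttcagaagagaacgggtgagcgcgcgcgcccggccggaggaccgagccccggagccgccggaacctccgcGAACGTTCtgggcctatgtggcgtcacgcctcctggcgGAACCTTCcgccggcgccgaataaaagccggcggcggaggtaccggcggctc
Hsph1: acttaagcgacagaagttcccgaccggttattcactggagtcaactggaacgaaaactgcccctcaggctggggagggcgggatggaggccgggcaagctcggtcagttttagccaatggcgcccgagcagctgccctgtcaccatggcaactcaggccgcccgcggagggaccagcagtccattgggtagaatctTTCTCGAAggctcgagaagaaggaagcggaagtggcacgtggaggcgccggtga
Hsp90b1: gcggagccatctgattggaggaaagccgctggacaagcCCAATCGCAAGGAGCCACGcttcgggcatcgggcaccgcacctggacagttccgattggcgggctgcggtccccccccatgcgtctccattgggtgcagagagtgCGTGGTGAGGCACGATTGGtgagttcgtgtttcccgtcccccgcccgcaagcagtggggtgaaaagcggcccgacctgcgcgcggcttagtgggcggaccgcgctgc

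The Hspa1a and Hspa1b stretches were identical at 247 of 250 positions (98.8%), compared without gaps, and each held 1 pair of units at position -104. No protein-coding gene lay between Hspa1b and Hspa1a, nor between Hspa1a and Hspa1l, in RefSeq's gene order on chromosome 17. Hspb1 had pairs of units at positions -117 and -97, Dnaja4 at -90 and -52, and Hsph1 at -54. Another window of Dnaja4, further upstream, held 0 pairs. The run of 3 units of Hsph1 began at position 15, after the start, and so is not in the stretch shown. The elements of Hsp90b1 began at positions -212 and -107. RefSeq promoter windows of 300 bases (250 before to 50 after the start) were matched for 74 of the 88 members, 93 windows in all, some of which overlap, within a gene or between neighbours. Merging windows that overlap on the genome left 83 separate stretches for the members and 29061 for all genes. A pair of alternating units was in 20 of the 93 windows (21.5%), against 15.1% of 32851 windows of all genes, and in 17 of the 83 stretches (20.5%) against 15.6% of all. A run of 3 alternating units (GAANNTTCNNGAA or TTCNNGAANNTTC), which includes such pairs, was in 6 of 93 windows (6.45%) against 0.603% of all. These 6 windows are only 3 stretches (3.61%, against 0.595% of all): Dnajb6 and Hsph1 have a pair of overlapping windows each, and Hspd1 and Hspe1 share theirs. The ER stress element was in 6 of 93 windows (6.45%) against 0.119% of all, and these were 6 separate stretches. These are matches of letters and not shown to be bound sites.

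**Figure D1:**
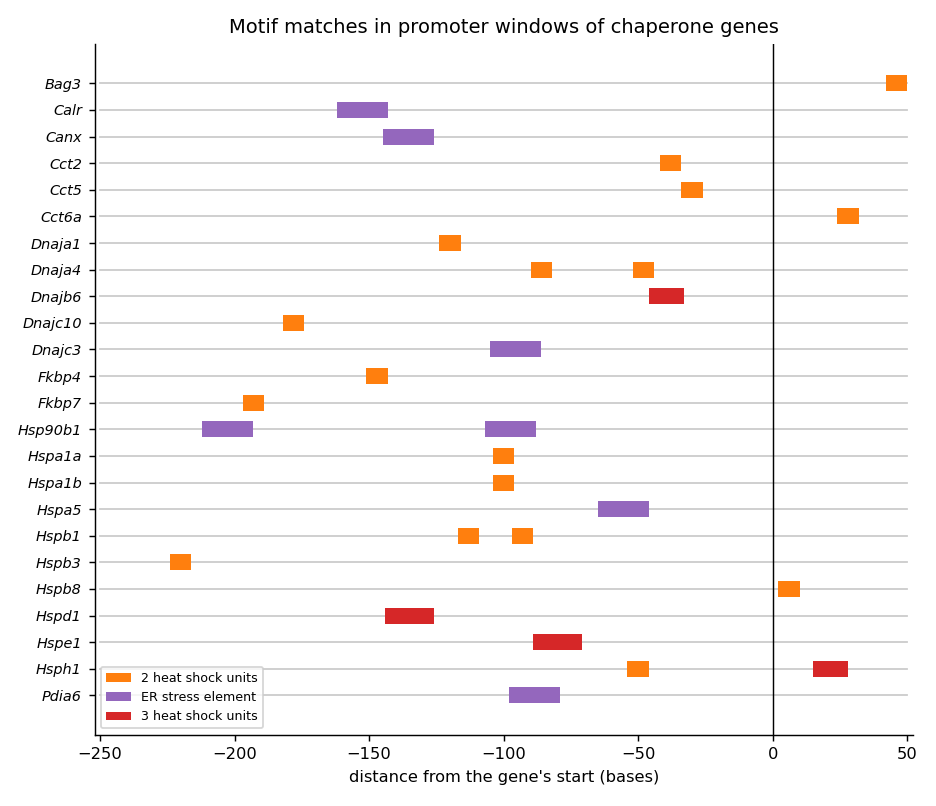
Motif matches in the RefSeq promoter windows of the member genes with a match, 1 window per gene; the horizontal axis is the distance from the gene's start in bases, orange bars are 2 alternating heat shock units, red bars 3 units and purple bars the ER stress element. The ER stress element was found in windows of 6 genes (Calr, Canx, Dnajc3, Hsp90b1, Hspa5 and Pdia6), and runs of 3 units in windows of 4 genes.

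Intensities are on a linear scale without a unit, on which the array medians ran from 0.927 to 0.963. The 20 arrays bore out the tissue labels: all 6 rod and cone markers tested were higher in retina at both sites. Their summed intensity was 312 to 411 in retina and 3.19 to 10.6 in cortex at the first site. By the call rule given below, 2 of them were lower in site 2 cortex than in first-site cortex. Gnat1 averaged 0.141 against 2.66 (log2 difference -4.23, adjusted p 3.9e-08, limma) and Sag 0.202 against 1.26 (-2.64, adjusted p 2.3e-06). Their tissue differences were wider at site 2, by 4.83 and 3.30 log2 units, and both changes were called. The other 4 were called in neither comparison, and the cause was not tested. All 5 markers of newborn cortical neurons were lower in retina at both sites, summing to 1.46 to 1.75 in retina against 47.1 to 51.1 in cortex. All 4 markers of dividing cells were also lower in retina, summing to 0.274 to 0.394 against 9.87 to 10.4. No value of these 3 lists was 0 or blank. Cortex replicate 5 at site 2 stood apart: its members lay a median of 0.366 log2 units from the average of its 4 companions, while that distance was 0.0665 to 0.171 for the other 19 arrays. For results described below that rest on it, values are given with and without it.

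Of the 88 members, 85 had values on at least 3 of 5 arrays in every group and were tested with limma across all 10339 such probes. Calling a member took a Benjamini-Hochberg adjusted p under 0.05 together with a change of 2-fold or more. At the first site 17 of 85 members were called between the tissues (20%; 24.9% of all probes), 10 of them higher in retina (11.8%; 11.9% of all) and 7 lower (8.24%; 13.0% of all). At site 2, 18 of 85 were called (21.2%; 24.6% of all probes), 10 higher (11.8%; 11.1% of all) and 8 lower (9.41%; 13.5% of all). These shares lay near or under those of all probes. By the adjusted p alone, 59 of 85 members (69.4%) differed at each site, against 59.9% of all probes at the first site and 60.4% at site 2. The median log2 difference of the members was 0.0044 at the first site and 0.08 at site 2, beside -0.04 and -0.05 over all probes. The median absolute difference was 0.49 and 0.50, beside 0.50 and 0.53 over all probes. In pooled tissue RNA, fewer cells of a type and less RNA per cell cannot be told apart.

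In all, 15 members (9 higher and 6 lower in retina) were called in the same direction at both sites, and 65 were called at neither. The difference had the same sign at both sites for 72 of 85 members and agreed within 0.5 log2 units for 75. Pearson's r between the 2 sites' differences was 0.945 and Spearman's rho 0.900 over the 85 members, as a description: both sites measured the same RNA pools with the same probes. For 34 members the difference was under 0.5 log2 units at both sites.

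**Figure D2:**
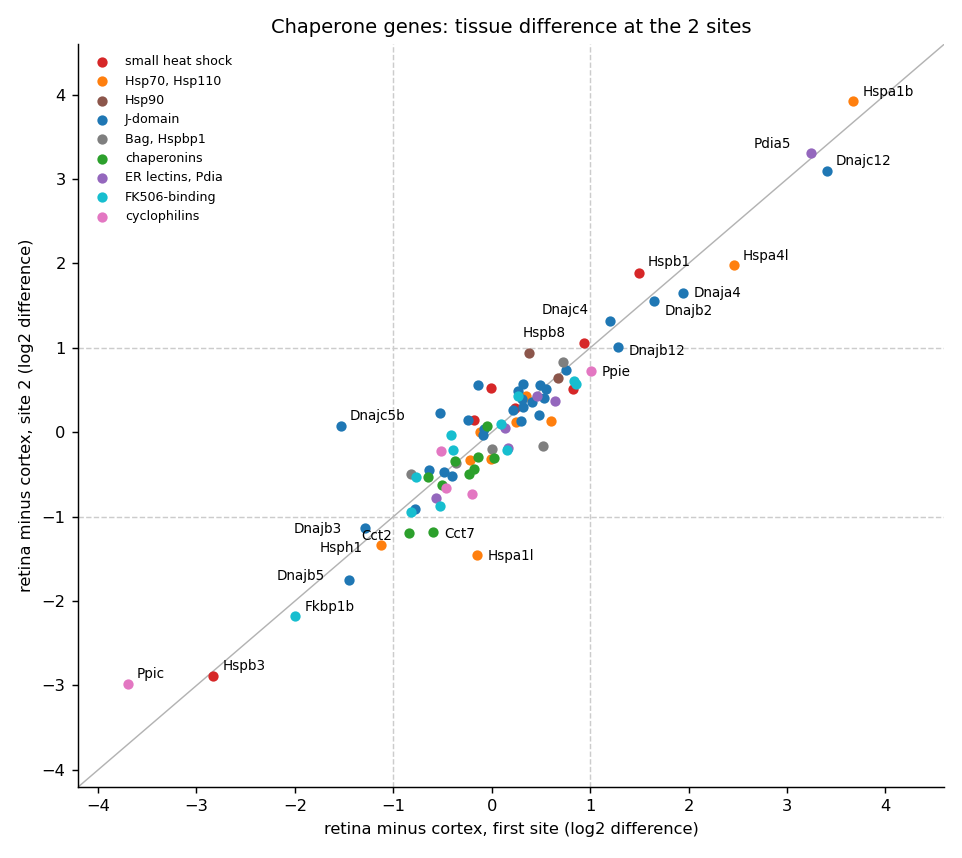
Log2 difference, retina minus cortex, at the first site (horizontal) and at site 2 (vertical) for the 85 tested members, 1 point per gene, coloured by family; dashed lines mark 2-fold and the grey line equal differences. Hspa1b, Pdia5 and Dnajc12 lie above 3 at both sites, Ppic and Hspb3 at -2.83 or below, and most other members near the centre. Names are given for members called at 1 or both sites and for Hspa1l, whose site 2 value rests on 1 array.

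Among the Hsp70 and Hsp110 genes, the inducible Hsp70 gene Hspa1b was higher in retina, by 12.8-fold at the first site and by 15.2-fold at the other. Its intensity at the first site was 29.2, 26.6, 24, 25.4 and 26.8 on the retina arrays and 1.89, 2.22, 2.13, 2.19 and 1.91 on the cortex arrays. At site 2 it was 15.8, 15.4, 14.5, 16.4 and 17.1 in retina and 1.09, 1.16, 0.962, 1.09 and 0.934 in cortex. Every retina array lay above every cortex array at both sites. The log2 difference was 3.67 (SE 0.0773, adjusted p 1.2e-17) at the first site and 3.92 (SE 0.0773, adjusted p 4.4e-18) at site 2. Its twin Hspa1a was blank on all first-site arrays and so could be compared at site 2 only, where it read 11.2, 10.3, 10.4, 12.8 and 11.7 in retina and 0.881, 0.855, 0.75, 0.873 and 0.702 in cortex. The groups did not overlap, and a fit of those groups alone gave a log2 difference of 3.80 (SE 0.0977, adjusted p 3.8e-10, limma), or 13.9-fold. Hspa1a was described after its values were seen. The genes are near-identical copies, so how much of either probe's signal came from the other gene is uncertain. Immediate early genes are switched on within minutes of many stimuli. Of 8 tested, 4 were called higher in retina at the first site (50%, against 11.9% of all probes) and 0 lower. The site 2 counts were 3 (37.5%, against 11.1% of all) and 0. The widest were Fos, at 2.82 and 2.07 log2 units, and Atf3, at 2.32 and 1.89. Dusp1, Egr1, Fosb and Jun, at 0.12 to 0.67, were called at neither site, and Junb at the first site only (1.92 and 0.15). The summed intensity of the 8 genes was 12.5 to 16 in retina and 7.43 to 8.66 in cortex at the first site, and 15.3 to 17.2 against 10.5 to 15 at site 2. Their part in the Hspa1a and Hspa1b difference was not tested.

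Hspa4l, an Hsp110 relative that exchanges nucleotide on Hsp70, was also higher in retina. At the first site it read 2.29, 2.22, 2.18, 2.37 and 2.27 in retina and, on the 4 cortex arrays with a value, 0.381, 0.449, 0.384 and 0.438. The site 2 readings were 1.17, 1.23, 1.31, 1.07 and 1.04 in retina and 0.229, 0.338, 0.346, 0.348 and 0.238 in cortex, again without overlap. Its log2 difference was 2.46 (SE 0.124, adjusted p 4.9e-12) and 1.98 (SE 0.117, adjusted p 5.2e-11). The other Hsp110 gene called, Hsph1, went the other way. Hsph1 read 1.64, 1.58, 1.63, 1.67 and 1.68 in retina and 3.79, 3.71, 3.66, 3.36 and 3.39 in cortex at the first site, and 1.46, 1.34, 1.45, 1.57 and 1.39 against 3.72, 3.53, 3.48, 3.04 and 4.58 at site 2. Every cortex array was above every retina array, with a log2 difference of -1.12 (SE 0.0844, adjusted p 7.2e-10) and -1.34 (SE 0.0844, adjusted p 5.7e-11). Thus 2 genes of the 10 tested were called higher and 1 lower at each site (30%, against 24.9% and 24.6% of all probes). The family's median difference was 0.12 and 0.06.

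Hspa8, the constitutive Hsp70 that also strips clathrin from vesicles, was not called at either site. It read 76.3, 76.3, 85.6, 76.4 and 72.1 in retina and 76.8, 84, 77.5, 84.8 and 98.8 in cortex at the first site, and 78.4, 79.5, 79.1, 71 and 77.7 against 79.5, 81.2, 74.8, 81.9 and 69.1 at site 2. Retina and cortex overlapped at both sites, and the difference was -0.12 (SE 0.0751, adjusted p 0.18) and -0.0012 (SE 0.0751, adjusted p 0.99). The endoplasmic reticulum's Hsp70 Hspa5 (BiP) differed by 0.35 and 0.43 log2 units and the mitochondrial Hspa9 by -0.01 and -0.32, both chosen after their values were seen. Hspa1l, the third gene of the Hspa1 cluster, was dim in every group, with values of 0.0210 to 0.110 on 19 arrays, but read 3.53 on cortex replicate 5 at site 2. Its site 2 difference of -1.45 (adjusted p 0.12) was -0.35 (adjusted p 0.39) without that array.

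**Figure D3:**
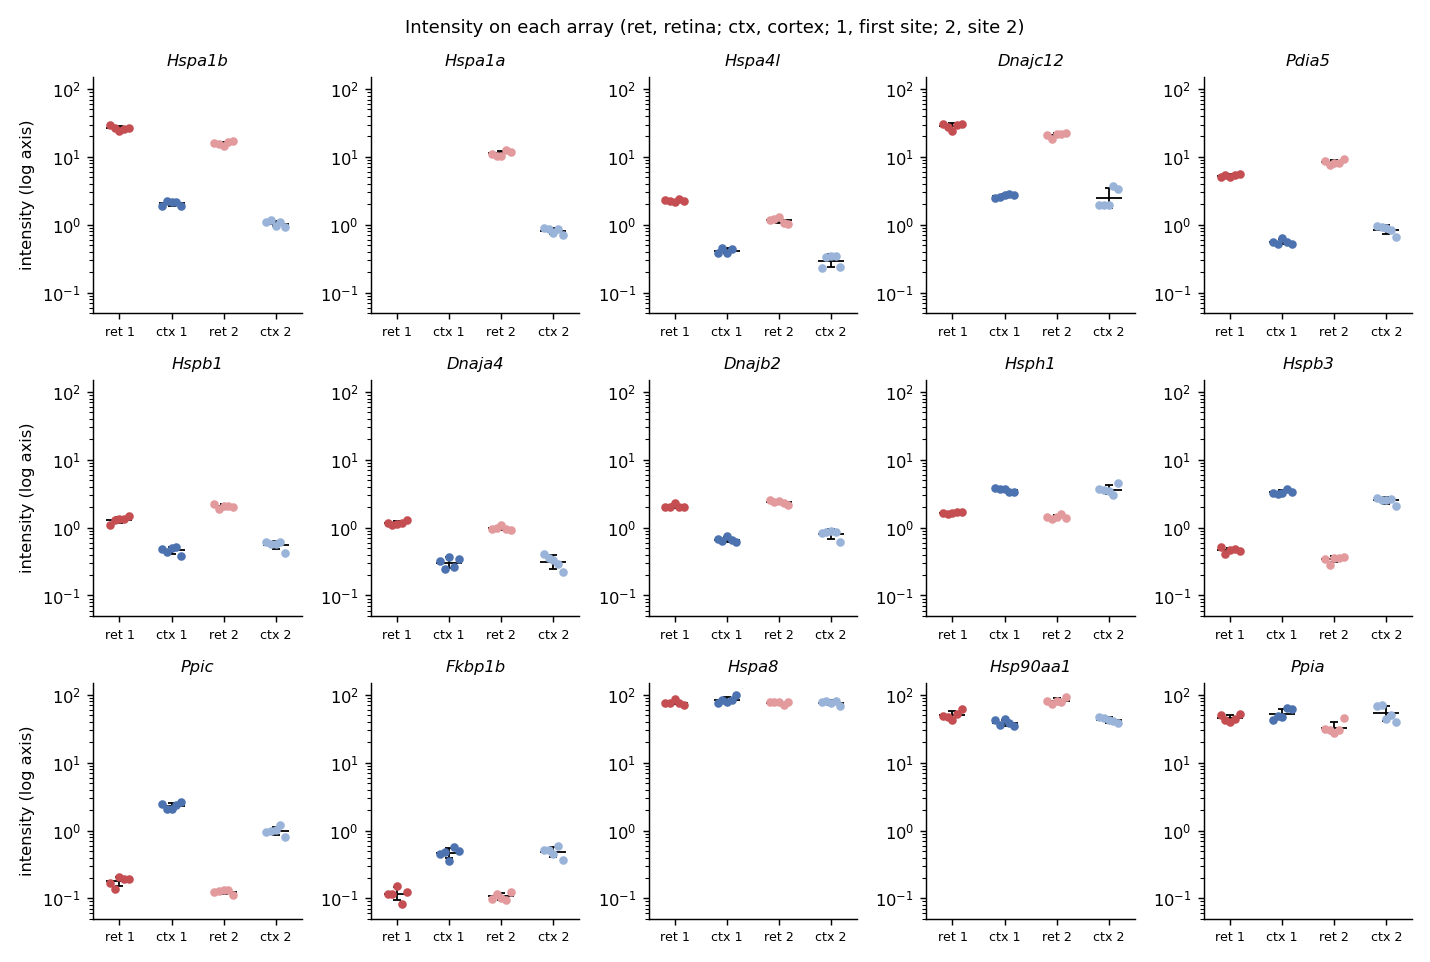
Intensity of 15 members on each array, on a log axis, by group (ret, retina; ctx, cortex; 1, first site; 2, site 2); points are single arrays, and the black bar and whiskers are the mean and SD of the log2 values. Hspa1b, Hspa4l, Dnajc12, Pdia5, Hspb1, Dnaja4 and Dnajb2 are higher in retina at both sites without overlap, Hsph1, Hspb3, Ppic and Fkbp1b are lower, and Hspa8 overlaps. Hspa1a has values at site 2 only.

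Both genes with an Hsp90 symbol were higher in retina by less than 2-fold, so 0 of 2 were called at either site by limma. Both had an adjusted p under 0.05 at each site. Hsp90aa1, the inducible cytosolic Hsp90, read 48, 48, 42.9, 52.5 and 62.3 in retina and 42.5, 36, 43.5, 37.9 and 35.1 in cortex at the first site. At site 2 it read 82.4, 73.8, 82, 78.1 and 94.5 in retina and 47.1, 46.2, 42, 40.9 and 38.1 in cortex. The groups overlapped at the first site and were apart at site 2. The difference was 0.37 (SE 0.0994, adjusted p 0.003) and 0.94 (SE 0.0994, adjusted p 1e-07), and the change of the difference between sites, 0.56 (SE 0.141, adjusted p 0.031), passed the adjusted p but not 2-fold. Hsp90b1 (Grp94), the Hsp90 of the endoplasmic reticulum and the member whose promoter holds 2 ER stress elements, read 37.9 to 45.6 in retina and 23.3 to 28.6 in cortex at the first site and 34.9 to 40.8 against 22.5 to 29.5 at site 2. Its retina and cortex arrays did not overlap, and the difference was 0.68 (SE 0.0871, adjusted p 1.4e-06) and 0.64 (SE 0.0871, adjusted p 2.7e-06); Hsp90b1 was chosen after its values were seen.

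J-domain proteins, which hand substrates to Hsp70 and start its ATP hydrolysis, formed the largest family. Of 29 tested, 5 were called higher (17.2%, against 11.9% of all probes) and 3 lower (10.3%, against 13.0% of all) in retina at the first site. The site 2 counts were 5 higher (17.2%, against 11.1% of all) and 2 lower (6.9%, against 13.5% of all). The median difference was 0.30 at each site. Dnajc12, a co-chaperone of the aromatic amino acid hydroxylases, had the widest difference of the family. It read 31, 27.7, 24.2, 29.7 and 30.1 in retina and 2.51, 2.59, 2.74, 2.85 and 2.74 in cortex at the first site, and 21.3, 18.6, 22.1, 21.5 and 22.4 against 1.93, 1.93, 1.95, 3.77 and 3.31 at site 2. No cortex array reached any retina array, and the log2 difference was 3.41 (SE 0.159, adjusted p 5.8e-13) and 3.10 (SE 0.159, adjusted p 2.5e-12), or 10.6-fold and 8.57-fold. Without cortex replicate 5 at site 2 the site 2 difference was 3.21.

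Dnaja4, a cytosolic partner of Hsp70 with 2 pairs of heat shock units in the promoter stretch shown, read 1.16, 1.1, 1.14, 1.18 and 1.28 in retina and 0.324, 0.242, 0.37, 0.259 and 0.345 in cortex at the first site. The site 2 readings were 0.969, 0.993, 1.09, 0.964 and 0.926 and 0.412, 0.352, 0.339, 0.287 and 0.221. The tissues were apart at both sites, with a difference of 1.94 (SE 0.14, adjusted p 3.8e-10) and 1.65 (SE 0.14, adjusted p 4.5e-09). Dnajb2, known from neurons as a link between Hsp70 and the ubiquitin system, read 2.0, 2.03, 2.32, 2.01 and 2.03 in retina and 0.677, 0.629, 0.75, 0.647 and 0.61 in cortex at the first site and 2.55, 2.4, 2.51, 2.32 and 2.17 against 0.848, 0.868, 0.899, 0.86 and 0.612 at site 2. All retina arrays were above all cortex arrays, and the difference was 1.65 (SE 0.0948, adjusted p 1.3e-11) and 1.56 (SE 0.0948, adjusted p 3.3e-11). A further 4 J-domain genes were called at both sites and are named after their values were seen. Dnajb12, of the endoplasmic reticulum membrane, differed by 1.29 and 1.01 and Dnajc4 by 1.21 and 1.32. The lower pair was Dnajb3, known from testis, at -1.28 and -1.13, and Dnajb5 at -1.45 and -1.75. Dnajb12 was 1.83-fold higher at site 2 without cortex replicate 5, which is under the 2-fold rule.

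The cytosolic Dnaja1, a main partner of Hspa8, was under 2-fold at both sites. It read 35.2, 35.5, 34.4, 34.6 and 39.1 in retina and 45.3, 47.6, 52.1, 52.6 and 53.5 in cortex at the first site and 25.9, 25.2, 24, 27.1 and 29.1 against 36.4, 36.8, 37.5, 39.3 and 32.1 at site 2. Cortex was above retina on every array, by -0.49 (SE 0.0722, adjusted p 8e-06) and -0.47 (SE 0.0722, adjusted p 1.3e-05) as retina minus cortex. The heat-inducible Dnajb1, chosen after its values were seen, went the opposite way, at 0.49 and 0.56 (adjusted p 0.00022 and 5.6e-05). Dnajc5b, a relative of the synaptic cysteine string protein known from testis, was called lower at the first site only (-1.53 and 0.08), but its intensity never passed 0.158, which is under the table's 25th percentile of 0.194. That call was lost when dim values were raised to a floor, at -0.51 (adjusted p 0.072) with the 5th percentile and 0 with the 25th. Dnajc14 and Dnajc15 were not tested in all groups. Dnajc14 was blank on the site 2 retina arrays and read 4.46 to 5.09 in retina and 2.85 to 3.68 in cortex at the first site, which do not overlap. A fit of those groups alone gave 0.57 (SE 0.0798, adjusted p 9.3e-05, limma), under 2-fold. Its cortex values at site 2, from 4 arrays, were 0.8 to 1.96, below all those of the first site. The cortex site difference, with the same kind of fit, was -1.37 (SE 0.252, adjusted p 0.0025), or 2.58-fold, and past the call rule. Dnajc15 was blank at site 2 and read 0.184 to 0.284 in retina and 0.252 to 0.446 in cortex at the first site, which overlap, and that fit gave -0.54 (SE 0.173, adjusted p 0.018).

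**Figure D4:**
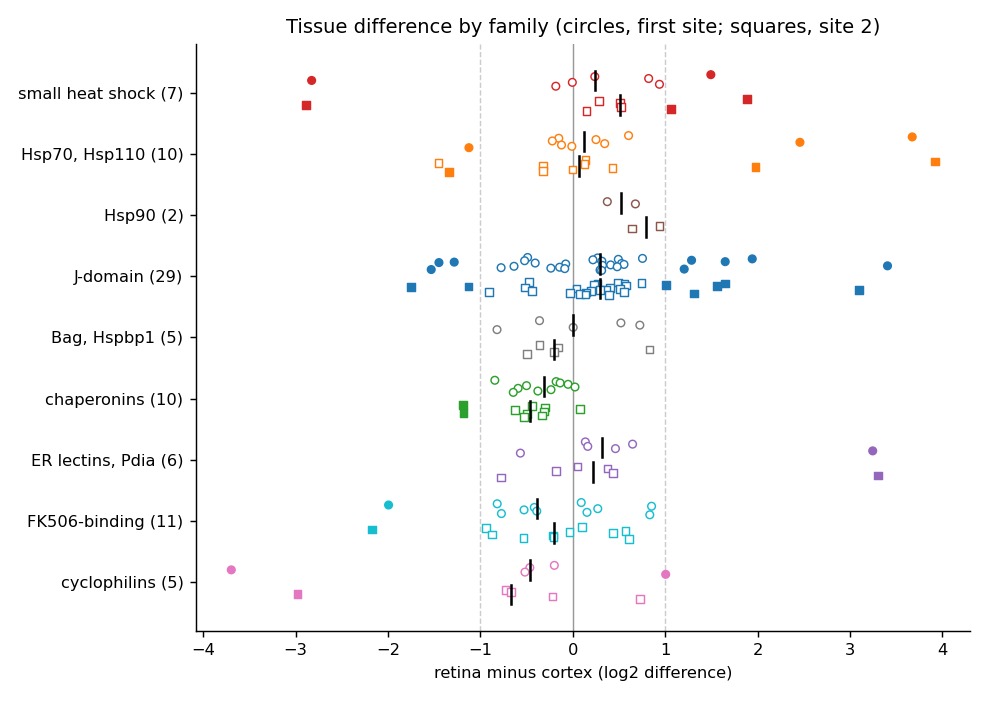
Log2 difference between retina and cortex of each tested member by family, with the number tested in parentheses; circles are the first site and squares site 2, filled symbols were called, black ticks are family medians and dashed lines mark 2-fold. The chaperonins lie mostly left of 0, while in the small heat shock, Hsp70 and J-domain families single members lie far out on both sides.

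Small heat shock genes were taken by the symbol Hspb alone, which brings in Hspb11. Of the 7 tested, Hspb1 was called higher and Hspb3 lower in retina at both sites, and Hspb8 was called higher at site 2. Hspb1 (Hsp25 of the mouse), an inducible member that protects cells under stress, read 1.1, 1.28, 1.33, 1.34 and 1.5 in retina and 0.487, 0.437, 0.495, 0.524 and 0.384 in cortex at the first site. At site 2 the readings were 2.25, 1.86, 2.06, 2.12 and 1.99 and 0.61, 0.576, 0.576, 0.607 and 0.429. Retina was above cortex on every array, by 1.49 (SE 0.108, adjusted p 4.3e-10) and 1.89 (SE 0.108, adjusted p 1.4e-11). Hspb3, known as a muscle member, read 0.51, 0.414, 0.47, 0.49 and 0.455 in retina and 3.21, 3.12, 3.22, 3.69 and 3.36 in cortex at the first site and 0.341, 0.286, 0.352, 0.358 and 0.373 against 2.7, 2.58, 2.58, 2.69 and 2.09 at site 2. Every cortex array was above every retina array, with a difference of -2.83 (SE 0.0875, adjusted p 1.3e-15) and -2.88 (SE 0.0875, adjusted p 1e-15), or 7.10-fold and 7.39-fold lower in retina. The markers of muscle did not share one direction. Of 6 tested, 1 was called higher (16.7%, against 11.9% of all probes) and 2 lower (33.3%, against 13.0% of all) in retina at the first site. The site 2 counts were 0 higher (11.1% of all probes) and 2 lower (33.3%, against 13.5% of all). Their summed intensity was 1.06 to 1.29 in retina and 1.23 to 1.43 in cortex at the first site, which overlap. At site 2 it was 0.978 to 1.10 in retina and 1.31 to 1.71 in cortex, which do not. The part of muscle cells in the Hspb3 values was not tested.

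Hspb8, which works with Bag3 in chaperone-assisted autophagy, lay at the 2-fold line. It read 1.38, 1.51, 1.72, 1.56 and 1.54 in retina and 0.745, 0.813, 0.765, 0.857 and 0.84 in cortex at the first site and 1.68, 1.54, 1.65, 1.89 and 1.71 against 0.859, 0.834, 0.841, 0.895 and 0.639 at site 2. The tissues were apart at both sites. The difference was 0.94 (SE 0.0887, adjusted p 2e-08) and 1.06 (SE 0.0887, adjusted p 3.5e-09), and without cortex replicate 5 the site 2 value of 0.98 was no longer called. Hspb9, known from testis, overlapped between tissues at both sites, at 5.32 to 5.84 in retina against 5.61 to 6.69 in cortex at the first site and 4.74 to 5.92 against 3.48 to 5.21 at site 2. Over the 7 genes, 2 were called at the first site (28.6%; 24.9% of all probes) and 3 at site 2 (42.9%; 24.6% of all). Cryab, the related alpha-crystallin outside the symbol rule, was higher in retina by 2.58 and 2.66 log2 units. Markers of Müller glia and astrocytes were called higher in retina for 3 of 6 genes at each site (Glul, Rlbp1 and Aqp4). That is 50%, against 11.9% of all probes at the first site and 11.1% at site 2. Gfap (-0.15 and -0.19), Slc1a3 (-0.30 and 0.06) and Vim (0.11 and 0.14) were not called. The summed intensity was 120 to 142 in retina and 48.6 to 56.6 in cortex at the first site. Most of it was Glul, which averaged 109 and 35.5. Lens markers were called higher for 1 of 3 (33.3%, Cryba4) and pigment epithelium markers for 3 of 3 (100%) at each site, with Rlbp1 counted here too. The shares of all probes are those just given. The part of these cells in the values was not tested.

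Of the 10 chaperonin genes tested, 0 were called at the first site by limma (6 had an unadjusted p under 0.05). At site 2 there were 2, both lower in retina (20%, against 13.5% of all probes). Of the cytosolic subunits, Cct2, Cct7, Cct6a (adjusted p 0.00046) and Cct8 (adjusted p 0.017) passed the adjusted p at the first site and missed only the 2-fold rule. The rest of those with an unadjusted p under 0.05 there were the mitochondrial Hspd1 and Hspe1, described below. The medians were -0.31 and -0.47, beside -0.04 and -0.05 over all probes. The 7 general subunits of the cytosolic chaperonin that the symbol rule takes in had medians of -0.24 and -0.50. This chaperonin folds actin and tubulin. Its subunit Tcp1, outside the symbol rule, differed by -0.74 (adjusted p 1.2e-06, limma) and -0.57 (adjusted p 3.3e-05), under 2-fold. Cct2 read 6.88, 6.37, 5.56, 6.15 and 5.87 in retina and 11.1, 9.33, 11.4, 11.9 and 11.6 in cortex at the first site and 4.7, 4.93, 4.9, 4.05 and 4.8 against 10.4, 10.6, 12, 13.1 and 7.83 at site 2. The tissues were apart at both sites, with a difference of -0.84 (SE 0.113, adjusted p 2.4e-06) and -1.19 (SE 0.113, adjusted p 2.3e-08). Cct7 read 10.9, 9.81, 8.32, 10.1 and 8.12 in retina and 13.4, 12.1, 14, 17.3 and 14.4 in cortex at the first site and 5.48, 4.61, 4.84, 5.06 and 5.6 against 12.3, 14.1, 12.8, 10.4 and 9.05 at site 2. It was apart at both sites as well, at -0.59 (SE 0.122, adjusted p 0.00031) and -1.18 (SE 0.122, adjusted p 6.6e-08), so both genes were under 2-fold at the first site and past it at site 2. The change between sites was not called for Cct2 (-0.35, adjusted p 0.22) or Cct7 (-0.59, adjusted p 0.058). Cct4 overlapped at both sites, at 35.3 to 47.5 in retina against 40.8 to 47 in cortex and 32.9 to 43.7 against 41.1 to 49.6, with a difference of -0.14 and -0.30. A second, dimmer Cct4 probe gave -0.03 and 0.19, the opposite sign at site 2, and was not called either. The mitochondrial pair Hspd1 and Hspe1, neighbours in the genome with runs of 3 heat shock units in their windows, differed by -0.38 and -0.34 and by -0.64 and -0.53, and were chosen after their values were seen. At site 2 both passed the adjusted p (0.0018 and 0.0052, limma) and missed only the 2-fold rule. The dividing cell markers given above were lower in retina as well, and their part in the chaperonin values was not tested.

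Of the 5 Bag and Hspbp1 co-chaperones, which release nucleotide from Hsp70, 0 were called between tissues at either site by limma. An unadjusted p under 0.05 was found for 3 at the first site and 3 at site 2. Bag1, Bag4 and Hspbp1 passed the adjusted p at both sites and missed only the 2-fold rule. Bag4 differed by 0.73 (adjusted p 2.4e-07) and 0.83 (adjusted p 3.7e-08). Hspbp1 was brighter in cortex, at 6.0, 6.2, 7.27, 5.95 and 6.17 in retina and 11.4, 9.98, 12.3, 11.8 and 10.3 in cortex at the first site and 7.98, 6.99, 7.71, 7.79 and 7.14 against 11.9, 10.7, 11.7, 10.9 and 8.13 at site 2. The arrays did not overlap, and the difference was -0.82 (SE 0.0967, adjusted p 4.4e-07) and -0.49 (SE 0.0967, adjusted p 0.00019). Bag1 differed by -0.36 and -0.36. Bag3, the partner of Hspb8, read 0.220 to 0.300 on the first 4 cortex arrays of site 2 and 2.10 on replicate 5. Its site 2 tissue difference was -0.16 (adjusted p 0.77, limma) with that array and 0.45 (adjusted p 0.0099) without it. The sign thus rested on that array, and Bag3 was not called either way.

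In the endoplasmic reticulum 1 of the 6 lectin and disulfide isomerase genes was called at each site (16.7%, against 24.9% and 24.6% of all probes). Pdia5, a disulfide isomerase, read 5.08, 5.41, 5.03, 5.5 and 5.57 in retina and 0.566, 0.521, 0.646, 0.551 and 0.522 in cortex at the first site. At site 2 it read 8.84, 7.71, 8.01, 8.15 and 9.26 in retina and 0.962, 0.935, 0.882, 0.831 and 0.667 in cortex. No array of one tissue reached the other, and the difference was 3.25 (SE 0.0921, adjusted p 4e-16) and 3.30 (SE 0.0921, adjusted p 2.9e-16), or 9.49-fold and 9.87-fold. Pdia3 (ERp57), which acts on glycoproteins with calnexin and calreticulin, was not called. It read 26.3 to 35.7 in retina and 20.2 to 31.1 in cortex at the first site and 32.3 to 38.4 against 33.9 to 45.8 at site 2, which overlap, with a difference of 0.16 and -0.18. The lectins Calr (0.14 and 0.05) and Canx (0.65 and 0.38) and the isomerase Pdia6 (-0.57 and -0.78) were under 2-fold too, and were chosen after their values were seen. A second, dimmer Canx probe gave -0.56 at the first site, where the brighter one gave 0.65, so the Canx probes disagreed. A list of 19 members was assigned to the reticulum from all families, and it left out Dnajb12, called higher at both sites. Within that list 1 was called higher (Pdia5) and 1 lower (Ppic) at each site, with medians of 0.22 and 0.27. Each is 5.26% of the list, against 11.9% higher and 13.0% lower of all probes at the first site. The shares of all probes at site 2 were 11.1% and 13.5%. The 6 members whose windows hold an ER stress element were all called at neither site, as were 65 of the 85 tested members.

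Proline isomerases held the member furthest towards cortex. Ppic (cyclophilin C), of the secretory pathway, read 0.171, 0.14, 0.209, 0.191 and 0.196 in retina and 2.49, 2.08, 2.11, 2.38 and 2.62 in cortex at the first site. Site 2 gave 0.123, 0.128, 0.132, 0.131 and 0.113 and 0.968, 0.995, 1.02, 1.21 and 0.80. The tissues were far apart at both sites, with a difference of -3.70 (SE 0.113, adjusted p 1.1e-15) and -2.98 (SE 0.113, adjusted p 2.8e-14), or 13.0-fold and 7.89-fold lower in retina. With intensities raised to the 25th percentile it was -3.45 and -2.35. The change of the difference between sites, 0.72 (SE 0.16, adjusted p 0.017), passed the adjusted p but not 2-fold. Ppie, a cyclophilin of the spliceosome, was called higher at the first site only. It read 14.1, 12.2, 11.3, 11.3 and 11.1 in retina and 5.55, 5.88, 5.83, 6.85 and 5.73 in cortex at the first site and 6.27, 6.42, 6.03, 6.37 and 7.03 against 4.04, 4.08, 3.71, 4.42 and 3.21 at site 2. Retina was above cortex throughout, by 1.01 (SE 0.0893, adjusted p 8.2e-09) and 0.73 (SE 0.0893, adjusted p 7.4e-07), and the change between sites was not called (-0.28, adjusted p 0.21). The first-site value lay on the 2-fold line, and leaving out 1 array took it below for 5 of the 20 arrays, the lowest being 0.95 without retina replicate 1.

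Ppia (cyclophilin A), the cytosolic target of cyclosporin and often a reference gene, read 50.4, 42.3, 40.2, 43.6 and 52.6 in retina and 42.5, 48.1, 47.8, 64.7 and 62.2 in cortex at the first site. Site 2 gave 31.4, 30.4, 27.4, 30.5 and 45.2 and 68.5, 71.4, 44.4, 51.2 and 40.3. The tissues overlapped at both sites, and the difference was -0.20 (SE 0.171, adjusted p 0.34) and -0.73 (SE 0.171, adjusted p 0.0011). Cyclophilins as a family had 1 gene called higher and 1 lower of 5 at the first site (40%, against 24.9% of all probes). These counts were 0 and 1 at site 2 (20%, against 24.6% of all).

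Among the FK506-binding proteins, 1 of 11 was called at each site (9.09%, against 24.9% and 24.6% of all probes). This was Fkbp1b (FKBP12.6), which binds ryanodine receptors. It read 0.116, 0.117, 0.154, 0.0828 and 0.124 in retina and 0.455, 0.479, 0.353, 0.565 and 0.496 in cortex at the first site and 0.0985, 0.114, 0.102, 0.0958 and 0.126 against 0.518, 0.522, 0.455, 0.583 and 0.368 at site 2. Cortex was above retina on every array, with a difference of -1.99 (SE 0.156, adjusted p 1.4e-09) and -2.18 (SE 0.156, adjusted p 3.9e-10). Its retina values lay under the 25th percentile of the table, so the fold depends on how dim values are handled: with intensities raised to that percentile the difference was -1.26 and -1.31. Its paralog Fkbp1a (FKBP12), the target of rapamycin and FK506, read 15, 14.6, 14.4, 14.7 and 14.2 in retina and 24.5, 25.2, 25, 27.7 and 26 in cortex at the first site and 10.3, 9.61, 12.7, 10.6 and 10.9 against 21.2, 20.1, 22.1, 18.2 and 22.1 at site 2. The tissues did not overlap, but the difference of -0.82 (SE 0.0728, adjusted p 8.5e-09) and -0.94 (SE 0.0728, adjusted p 1.2e-09) was under 2-fold. The family's medians were -0.39 and -0.21. Fkbp5, the glucocorticoid-induced member, read 1.13 to 1.30 on the other site 2 cortex arrays and 4.15 on replicate 5. Its site 2 tissue difference was -0.88 (adjusted p 0.0052, limma) with that array and -0.52 (adjusted p 5e-05) without it, not called either way.

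The same RNA pools read at the 2 sites differed for fewer members. In retina, 6 of 85 were called between site 2 and the first site (7.06%; 6.24% of all probes), 3 higher at site 2 (3.53%; 4.79% of all) and 3 lower (3.53%; 1.45% of all). In cortex, 3 of 85 were called (3.53%; 7.21% of all probes), 0 of them higher (5.29% of all) and 3 lower (3.53%; 1.92% of all). By the adjusted p alone the counts were 48 of 85 in retina (46.7% of all probes) and 42 in cortex (46.8% of all). The members' median site difference was -0.18 in retina and -0.08 in cortex, beside 0.02 and 0.08 over all probes. The split over all probes depended on the scaling: 495 probes were called higher and 150 lower in retina as deposited and 298 and 176 after quantile normalization, and in cortex 547 and 198 became 251 and 259. After quantile normalization the members' counts were 2 higher and 1 lower in retina and 0 and 2 in cortex.

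Bag1, an Hsp70 nucleotide exchange factor, was lower at site 2 in both tissues. Its retina arrays read 7.34, 7.54, 6.46, 7.46 and 6.91 at the first site and 3.69, 3.18, 2.95, 3.62 and 3.98 at site 2, and its cortex arrays 8.25, 9.19, 9.13, 9.84 and 9.42 and 4.58, 5.02, 4.46, 4.42 and 3.84. No array of one site reached the other within a tissue. The site difference was -1.04 (SE 0.0875, adjusted p 7.7e-08) in retina and -1.04 (SE 0.0875, adjusted p 5.9e-08) in cortex, both on the 2-fold line, so that quantile normalization gave -0.93 in each. Leaving out retina replicate 3 of site 2 gave -0.98 and leaving out cortex replicate 5 gave -0.99. Dnajc6 (auxilin), which uncoats clathrin vesicles with Hspa8, read 0.847, 0.877, 0.66, 0.895 and 0.859 in retina at the first site and 0.388, 0.389, 0.307, 0.359 and 0.256 at site 2, and 0.524 to 0.859 and 0.241 to 0.409 in cortex. The sites were apart in both tissues, with -1.29 (SE 0.155, adjusted p 2.7e-06) in retina and -1.14 (SE 0.155, adjusted p 1.1e-05) in cortex. Ppic was called lower at site 2 in cortex, at -1.23 (SE 0.113, adjusted p 1.5e-07), and was under 2-fold in retina, at -0.52.

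Hspa14, a ribosome-associated Hsp70 relative, read 16.8, 16.1, 16.2, 16.3 and 16.7 in retina at the first site and 7.61, 7.08, 8.47, 7.17 and 7.5 at site 2, without overlap, a difference of -1.12 (SE 0.183, adjusted p 6.9e-05). Quantile normalization gave -0.99, which is under 2-fold and ends that call. In cortex it read 10.2, 9.85, 11.4, 12.3 and 10.4 and 5.73, 5.34, 5.64, 6.34 and 13.9. The cortex sites overlapped through replicate 5, and the cortex difference of -0.65 was not called. Without that array it was -0.91 (adjusted p 4e-08), still under 2-fold. The site 2 tissue difference of Hspa14 was 0.14 (adjusted p 0.54, limma) with that array and 0.39 (adjusted p 0.00011) without it, not called either way. The 3 members called higher at site 2 in retina were all J-domain genes. Dnajb13, known from sperm flagella, read 0.163, 0.31, 0.242, 0.182 and 0.315 at the first site and 0.507, 0.516, 0.681, 0.793 and 0.992 at site 2, which do not overlap, and differed by 1.53 (SE 0.205, adjusted p 8.9e-06). Dnajc5b and Dnajc22 were dim in every group, at 0.014 to 0.0364 and 0.0517 to 0.125 and at 0.024 to 0.0807 and 0.0675 to 0.166 in retina. Their differences of 2.06 and 1.18 became 0 when intensities under the 25th percentile were raised to it. Dnajc22 was also under 2-fold without retina replicate 1 of site 2 (0.96) or retina replicate 4 of the first site (1.00, just below).

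**Figure D5:**
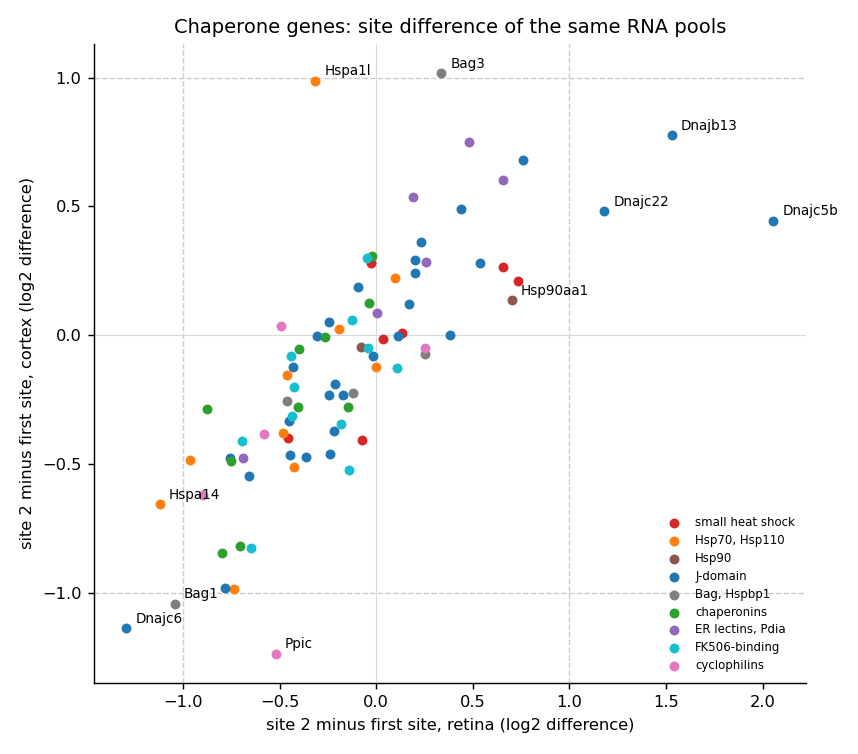
Log2 difference between site 2 and the first site in retina (horizontal) and in cortex (vertical) for the 85 tested members, coloured by family; dashed lines mark 2-fold. Bag1 and Dnajc6 lie at or below -1 in both tissues, and Dnajb13, Dnajc22 and Dnajc5b lie right of 1 in retina. Names are given for called members and for Hsp90aa1, Hspa1l and Bag3, the last pair with 1 high reading on cortex replicate 5 of site 2.

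Whether the tissue difference itself changed between sites was called for 0 of 85 members (0.725% of all probes), with limma; 20 had an unadjusted p under 0.05. By the adjusted p alone there were 2 (3.98% of all probes), Ppic and Hsp90aa1, described above. Dnajc5b changed by 1.61 with an adjusted p of 0.051.

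Heat shock units were found in promoter windows of members of either direction. Of the windows of members called higher in retina at both sites, 3 of 11 (27.3%) held a pair of heat shock units, from Hspa1b, Hspb1 and Dnaja4. Among members called lower at both sites the count was 3 of 8 windows (37.5%), from Hspb3 and a pair of overlapping windows of Hsph1. For members called at neither site it was 11 of 66 (16.7%), and over all genes 15.1% of windows. With overlapping windows merged, it was 3 of 8 stretches (37.5%) for members called higher and 2 of 6 (33.3%) for those called lower. Members called at neither site had 9 of 62 (14.5%), and all genes 15.6%. Of the members assigned to the inducible cytosolic class, 2 of 10 were called higher (Hspa1b and Hspb1) and 1 lower (Hsph1) at the first site. The site 2 counts were 3 higher (with Hspb8) and 1 lower. Together these are 30% and 40% of the class, against 24.9% and 24.6% of all probes.

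Beyond the symbol rule, 60 other folding genes were tested. Of these, 7 were called higher and 2 lower in retina at the first site and 6 and 3 at site 2, with medians of 0.21 and 0.13. The share called was 15% at each site, against 24.9% and 24.6% of all probes. None of 10 genes listed as Hsp90 and Hsp70 co-chaperones, such as Stip1 and Cdc37, was called between tissues by limma. The list also held Trap1, the mitochondrial Hsp90, at 0.20 and 0.02 log2 units. An unadjusted p under 0.05 was found for 7 and 5 of the 10. Some passed the adjusted p and missed only the 2-fold rule, as did Cdc37 (adjusted p 0.00019 and 0.0008) and Ttc4 (2.4e-06 and 4.6e-05). Of 25 genes of the reticulum and its unfolded protein response, 2 were called higher and 2 lower at the first site (16%, against 24.9% of all probes). The counts were 2 and 1 at site 2 (12%, against 24.6% of all). Ddit3 (Chop), a transcription factor of that response, was higher by 2.58 and 2.53 and Herpud1, of reticulum-associated degradation, by 1.29 and 1.31. Xbp1, Atf6 and Atf4, further transcription factors of the response, and the chaperone Hyou1 were not called. Atf4 differed by 0.34 and 0.88 (adjusted p 0.0083 and 3.8e-07, limma) and missed only the 2-fold rule. The secreted chaperone Clu was higher by 2.44 and 2.22, and the mitochondrial genes Timm44 and Clpx by 1.76 and 1.95 and by 1.16 and 1.23. The tubulin cofactors Tbca and Tbcb were called lower in retina at site 2 only.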

How the data were processed

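The authors deposited intensities of 10500 probes, 1 value for each of the 20 arrays, on a linear scale. No source used here gives their background correction or scaling. Values at or below 0 (143) were treated as missing, beside 2080 blanks, and the rest were put on the log2 scale with the deposited scaling kept. Probes with 1 gene symbol in the platform annotation were named, and the probe with the highest mean log2 stood for a gene. The Entrez identifiers of all 88 members were found in a RefSeq table (GRCm38.p6), with 0 symbol changes. No 2 arrays held identical values.

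One limma model (limma 3.58.1, R 4.3.3) with 4 group means was fitted to 20 arrays and 10339 probes, with no replicate block: replicate numbers did not pair arrays, since the deviations of the 30 same-numbered pairs correlated from -0.107 to 0.0773. P-values are 2-sided and Benjamini-Hochberg adjusted over 10339 probes. The fit was tested on simulated data. The members and lists were chosen with earlier results of these data known. Named with values were, per family, up to 3 members largest among those called at both sites and the brightest called at neither, members called at 1 site, members called between sites, and Ppia. Alternatives were quantile normalization, floors at the 5th and 25th percentile, other filters, the replicate block, groups fitted alone, other thresholds and leaving out each array. Figures were drawn with matplotlib 3.10.9.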

Additional observations from a re-analysis of the deposited data

Results flagged for a closer look

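Values far from the other 4 arrays of their group were looked for in 120 groups, the 30 named members in each of 4 groups, by Dixon's ratio at the 95% level. It marked 23 values, where chance marks about 1 in 20 groups. Cortex replicate 5 at site 2 gave 8 of them: Hspa14 read 13.9 against 5.34 to 6.34 on the others, and the remaining 7 were low. Hspb1 was 0.429 there, Hspb3 2.09, Hspb8 0.639, Hspb9 3.48, Dnajb2 0.612, Hspbp1 8.13 and Cct4 41.1. Without this array 16 members were called between tissues at site 2, all of them among the 18 called with it.

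Retina replicate 3 at the first site gave 4: Dnajb2 at 2.32, Hspb9 at 5.84, Hspbp1 at 7.27 and Dnajc6 at 0.660. Dnaja1 read 39.1 on retina replicate 5 there. Cortex replicate 2 of the first site read 9.33 for Cct2 and 0.0365 for Dnajc5b, and cortex replicate 4 read 6.85 for Ppie. At site 2, retina replicate 2 read 18.6 for Dnajc12, replicate 4 read 4.05 for Cct2 and 71.0 for Hspa8, and replicate 5 read 38.4 for Pdia3 and 45.2 for Ppia. Cortex replicate 4 of site 2 read 0.796 for Dnajb13 and 0.158 for Dnajc5b.

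The tissue difference changed between sites, by the adjusted p of the limma contrast itself, for 2 members, neither of them by 2-fold. The Hsp90aa1 difference was 0.56 log2 units larger at site 2 (adjusted p 0.031), and the Ppic difference was 0.72 units less negative there (adjusted p 0.017).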

How the results depend on the processing

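Without the fold rule the members called between tissues went from 17 to 59 at the first site and from 18 to 59 at site 2, and at 1.5-fold they were 34 (41.5% of all probes) and 31 (41.6% of all). Between sites the 6 members of retina became 48 without the fold rule, 22 at 1.5-fold (22.3% of all probes) and 3 after quantile normalization, and the 3 of cortex became 42 and 13 (23.1% of all). The change of the tissue difference between sites, called for 0 members, was called for 2 by the adjusted p alone and for 1 at 1.5-fold (2.68% of all probes), 1 after quantile normalization and 1 with the floor at the 25th percentile. Leaving out each array gave 16 to 17 and 16 to 19 members between tissues at the first site and site 2, 5 to 7 between sites in retina, 2 to 6 in cortex and 0 to 1 for the change. The highest cortex count, 6, came without cortex replicate 2 of site 2. With the replicate block the counts were 17, 18, 6, 3 and 0, as without it. Of 69 results of named members, 60 kept their side of the call rule under normalization, floors, filters, the block, groups fitted alone, other probes and left-out arrays, and 0 called results changed sign; the lower fold thresholds were run on the counts only. Among the rest, Bag1, Dnajc22, Dnajc5b, Hspa14, Hspb8 and Ppie lost a call, and Fkbp1a at site 2 gained one after quantile normalization (-1.06). The cause was not tested. Dim probes limit the values of the 7 members under the 25th percentile in all groups.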
